A study of Mus musculus with 6 samples.

Results

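The genes described here encode proteins of the spliceosome, the machine that removes introns from pre-mRNA. They are 38 genes taken by symbol: the Sm and LSm proteins, proteins specific to the U1, U2 and U5 small nuclear ribonucleoproteins (snRNPs), and SR splicing factors. All 38 were found among the 42256 genes of the deposited table, and all 38 passed the filter on low counts that left 12862 genes for testing. Total RNA was sequenced from macrophages grown out of the bone marrow of adult males of a mixed 129S1/Sv x C57BL/6 background. One group carried both intact copies of Cdh11, the gene of the adhesion protein cadherin-11 (CDH11+/+, WT), and the other lacked them (CDH11-/-, KO), with 3 libraries each. Marrow cells of both groups were grown for 7 days with 20% L929-conditioned medium, a source of the macrophage growth factor CSF1, and were otherwise untreated. The labels do not say how the Cdh11 allele was made. The series text speaks of 3 WT and 4 KO animals, but no label ties a library to an animal, so the p-values rest on the spread among libraries, which may be technical.

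Each snRNP pairs a small nuclear RNA with proteins. A ring of Sm proteins encircles the U1, U2, U4 and U5 RNAs, whereas a related ring of LSm proteins holds the end of U6. U1 proteins help to recognise the start of an intron, U2 proteins and the U2AF dimer its branch point and end, and U5 proteins sit at the catalytic core. SR proteins bind exons and guide splice site choice, and several SR genes control their own level through exons that send the transcript to decay. Counts per gene, as used here, do not separate such transcript forms.

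The libraries held 27170943 to 37113689 counts, of which mitochondrial genes took 2.09 to 2.43%. Single libraries held 183 to 19114 counts of a splicing gene, the lowest for Lsm5 and the highest for Srsf5. Cdh11 itself had 6, 11 and 6 counts in WT and 6, 4 and 5 in KO (log2 fold change -0.55, SE 0.51, edgeR adjusted p = 0.423), which is too few to check the genotype labels. All 8 macrophage markers examined were tested. Csf1r, Lyz2 and Mrc1 fell in KO, Cd68 rose, and Adgre1, Itgam, Mertk and Fcgr1 were not called. The summed level of the 8 markers was 32358 to 35059 CPM in WT and 19998 to 25854 CPM in KO. Most of this sum was Lyz2, at 22772 to 24782 CPM in WT and 13042 to 18118 CPM in KO. CPM are counts scaled to a common library total after TMM, a correction for composition. Without single libraries 2 to 5 of these markers fell and at most 1 rose. Markers of fibroblasts, T and NK cells and erythroid cells had at most 14 counts per gene and library. None of the 7 tested neutrophil and precursor markers, 1 B cell marker and 3 dendritic cell markers was called; without KO 1, 1 gene of each list was. Of 3 tested megakaryocyte markers Itga2b rose (0.586 to 1.09 CPM in WT and 4.28 to 6.83 in KO, log2 fold change 2.69) and so did Ppbp (2.03 to 3.09 and 4.19 to 7.00 CPM, edgeR adjusted p = 0.0189), whose call was lost without WT 1 or KO 2. Pf4, by far the most abundant of the 3, was not called (165 to 239 CPM in WT and 168 to 271 in KO, log2 fold change 0.06). Kit rose too, with mast cell and basophil markers summing to 0.241 to 0.375 CPM in WT and 0.843 to 1.78 CPM in KO, but none of these was called without WT 1, WT 2 or KO 3. The part of such cells in the results was not tested. In such bulk samples, fewer cells of a type and less RNA per cell cannot be told apart.

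Most of the splicing genes were higher in KO. The words rose and fell are kept for genes with an adjusted p under 0.05 in the quasi-likelihood test of edgeR, Benjamini-Hochberg adjusted over all genes tested; each edgeR adjusted p comes from that test. By this rule 23 of the 38 genes rose and 1 fell, while 18.5% of all tested genes rose and 16.8% fell (35.2% called in either direction). The log2 fold changes of the 38 genes ran from -0.36 to 0.78 with a median of 0.34, whereas the median of all genes was 0.00139. KO libraries all lay above WT libraries for 29 of the genes and all below for 4, against 27.0% and 26.4% of tested genes (53.4% in either direction). Leaving out single libraries left 18 to 25 rises, and 17 of the 24 calls held without each of the 6 libraries in turn. Among all genes called, 52.4% were higher in KO with TMM scaling and 64.4% with upper-quartile scaling, which also raised the count of rising splicing genes to 29. The genes added by that scaling were Lsm5, Lsm7, Sf3a3, Snrnp70, Snrpa and Srsf6.

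**Figure D1:**
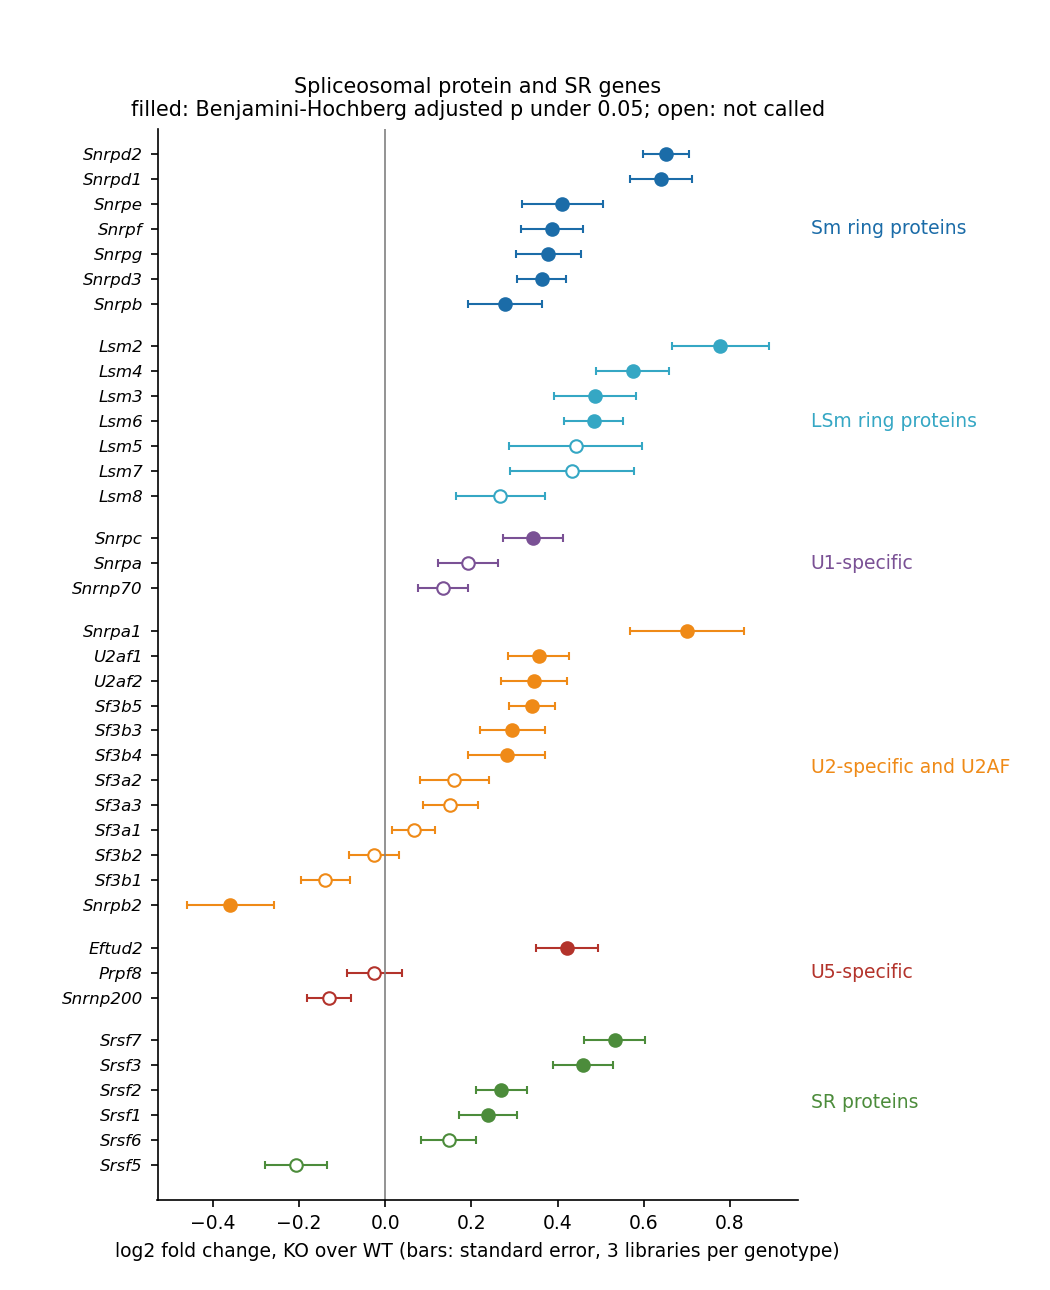
Log2 fold change of each splicing gene, KO over WT, on the horizontal axis, with its standard error as a bar and genes grouped by role. Filled points are genes with an adjusted p under 0.05; all 7 Sm genes are filled and lie to the right of 0, and Snrpb2, at -0.36, is the filled point to the left.

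The 250 bases before RefSeq transcript starts (GRCm38.p6) were read as promoter windows for 31 of the 38 genes, 36 windows in all because 5 genes have a pair. By the GENCODE M21 gene models, many windows hold exons of the gene itself. Some, such as those of Snrpa1 and Snrpc, lie wholly inside the gene. The stretches without an annotated exon are shown for 3 small-ring genes that rose together and for Prpf8, a large U5 gene that was not called. For Lsm6 and Prpf8 this is the whole window, but for Snrpd2 and Snrpf it is only 134 and 138 bases. The rest of the Snrpf window holds further CCAAT matches. Matches in the stretches shown therefore cannot be compared between genes. Capitals mark CCAAT or its complement ATTGG.

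Snrpd2, chr7:19149588-19149721, plus strand: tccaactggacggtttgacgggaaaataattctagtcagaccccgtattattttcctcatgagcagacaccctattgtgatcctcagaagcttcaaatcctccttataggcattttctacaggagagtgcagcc
Snrpf, chr10:93589771-93589908, minus strand: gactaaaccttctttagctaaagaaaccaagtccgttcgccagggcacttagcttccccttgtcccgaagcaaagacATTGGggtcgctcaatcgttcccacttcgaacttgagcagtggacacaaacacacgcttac
Lsm6, chr8:78821153-78821402, minus strand: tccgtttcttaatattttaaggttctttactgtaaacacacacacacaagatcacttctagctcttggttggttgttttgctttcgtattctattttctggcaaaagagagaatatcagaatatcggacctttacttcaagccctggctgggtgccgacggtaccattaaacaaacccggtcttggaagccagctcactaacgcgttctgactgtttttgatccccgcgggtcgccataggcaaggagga
Prpf8, chr11:75486527-75486776, plus strand: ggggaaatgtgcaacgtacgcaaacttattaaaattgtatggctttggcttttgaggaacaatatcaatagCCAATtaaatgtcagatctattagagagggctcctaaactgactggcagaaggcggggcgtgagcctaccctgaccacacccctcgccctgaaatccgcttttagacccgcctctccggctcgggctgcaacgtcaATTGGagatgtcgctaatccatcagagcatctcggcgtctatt

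On both strands, 7 motifs were searched in the 36 windows and in the 12131 windows of tested genes, each taken whole with any exons in it. CCAAT was in 36.1% of the splicing gene windows and in 35.7% of those of tested genes. The GC box GGGCGG was in 63.9% and 57.0%. The ETS-type motif CCGGAAGT was in 11.1% against 6.08%, in the windows of Sf3a3, Sf3b2 and Srsf5. The CRE motif TGACGTCA was in 3 windows (8.33% against 2.56%), those of Lsm2, Snrpa and Snrpg. TATAAA was in 4 windows (11.1% against 6.33%), the E-box CACGTG in 2 (5.56% against 8.36%), both of Snrpa, and the E2F-type TTCGCGCC in 1 (2.78% against 0.80%), that of Lsm3. The paired windows of Lsm7, Sf3b2 and U2af1 overlap, those of Sf3b2 and U2af1 almost wholly, whereas those of Lsm2 and Snrpa do not. Both Sf3b2 windows thus hold the same ETS-type match. A match is a description of these letters only.

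Per kilobase of principal transcript (GENCODE M21), the levels of the 38 genes in WT ran from 10.0 ± 0.516 CPM per kb for Lsm6 to 323 ± 16.2 for Srsf5 (SD, n = 3). Snrnp70 followed Srsf5 with 149 ± 5.88, then Srsf2 with 110 ± 2.47 and Snrpb with 98.8 ± 2.76 CPM per kb. Although the Sm proteins enter the same ring, their WT levels per kb ran from 16.0 ± 0.742 for Snrpd3 to 98.8 for Snrpb. Within the LSm ring Lsm4 was the highest, at 40.7 ± 2.04 CPM per kb. These levels depend on the annotated transcript length, which was 3036 nt for Snrpd3, 1161 nt for Snrpb and 2107 nt for Lsm6. In WT CPM, Snrpd3 (48.5) was above all Sm genes but Snrpb (115). Likewise Lsm6 (21.1) was above all LSm genes but Lsm4 (37.7).

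All 7 Sm genes rose in KO, with log2 fold changes of 0.28 to 0.65, and for each of them every KO library lay above every WT library. Snrpd2 and Snrpd1, which bind each other during ring assembly, had the largest changes. Snrpd2 (ENSMUSG00000040824, GRCm38 chromosome 7, 19149722 to 19153542, plus strand) was at 38.2, 36.9 and 37.1 CPM in the WT libraries and 56.9, 61.2 and 58.4 CPM in the KO libraries. The genotypes were far apart and their own spread was small. The log2 fold change was 0.65 (SE 0.05, edgeR adjusted p = 0.00398), a 1.57-fold rise. For Snrpd1 the values were 26.3, 24.2 and 28.0 CPM in WT and 40.2, 42.8 and 39.5 CPM in KO. No KO library came near the highest WT library, and the log2 fold change was 0.64 (SE 0.07, edgeR adjusted p = 0.00455).

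Snrpe, which joins the ring with Snrpf and Snrpg, was at 26.5, 22.4 and 23.6 CPM in WT and 33.3, 34.4 and 28.8 CPM in KO. The third KO library was the lowest of its group but still above WT. Its log2 fold change was 0.41 (SE 0.09, edgeR adjusted p = 0.016); without WT 2 the call was lost (log2 fold change 0.35, edgeR adjusted p = 0.0567). Snrpf was at 19.3, 18.8 and 17.5 CPM in WT and 22.8, 25.4 and 24.6 CPM in KO, a log2 fold change of 0.39 (SE 0.07, edgeR adjusted p = 0.00905). The ring protein with the highest level per kb, Snrpb, moved least. It was at 112, 118 and 114 CPM in WT and 121, 147 and 149 CPM in KO, so that KO 1 lay close to the WT libraries. With a log2 fold change of 0.28 (SE 0.09, edgeR adjusted p = 0.0416) its call was lost without any one of WT 1, WT 2, WT 3, KO 2 and KO 3 (edgeR adjusted p 0.0847 to 0.136). The other Sm genes, Snrpd3 and Snrpg, had log2 fold changes of 0.36 and 0.38; the call of Snrpg was lost in limma on the deposited normalized values (adjusted p = 0.0509).

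The LSm genes were all higher in KO, and 4 of 7 rose: Lsm2, Lsm3, Lsm4 and Lsm6. Lsm2 (ENSMUSG00000007050, chromosome 17, 34981862 to 34985891, plus strand) was at 8.55, 8.98 and 10.1 CPM in WT and 15.2, 17.8 and 14.3 CPM in KO. The lowest KO library was well above the highest WT library. Its log2 fold change of 0.78 (SE 0.11, edgeR adjusted p = 0.00574), 1.71-fold, was the largest of the 38 genes. Lsm4 was at 37.0, 36.2 and 39.8 CPM in WT and 49.6, 59.7 and 59.0 CPM in KO. The groups did not overlap, and the log2 fold change was 0.57 (SE 0.08, edgeR adjusted p = 0.00596).

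Lsm3 was at 16.5, 14.1 and 15.1 CPM in WT and 21.5, 23.3 and 19.4 CPM in KO (log2 fold change 0.49, SE 0.09, edgeR adjusted p = 0.0101). Lsm6 was at 21.6, 19.9 and 21.9 CPM in WT and 30.3, 30.4 and 28.0 CPM in KO (log2 fold change 0.48, SE 0.07, edgeR adjusted p = 0.00559). Neither gene had overlapping genotypes. The other ring members did not pass the test. Lsm5 had a log2 fold change of 0.44 (SE 0.15, edgeR adjusted p = 0.0601) and overlapping libraries, and it passed with upper-quartile scaling (edgeR adjusted p = 0.0381) and without a filter on low counts (0.0458). Lsm7 had one of 0.43 (SE 0.14, edgeR adjusted p = 0.0509). Lsm8, which distinguishes the nuclear U6 ring from the cytoplasmic mRNA decay ring, had 0.27 (SE 0.10, edgeR adjusted p = 0.0792). In CPM these 3 genes were among the less abundant, but so was Lsm2, which rose, and the part of abundance was not tested. Lsm7 passed the threshold with DESeq2 (adjusted p = 0.0389), without a filter on low counts, with upper-quartile scaling and without WT 1 (edgeR adjusted p = 0.0358). Lsm8 passed without KO 1.

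Of the U1 proteins, which contact the U1 RNA and stabilise its pairing with the intron start, Snrpc rose. Its levels were 40.7, 39.7 and 36.7 CPM in WT and 48.5, 53.1 and 47.0 CPM in KO. All KO libraries were higher, and the log2 fold change was 0.34 (SE 0.07, edgeR adjusted p = 0.0113). Snrnp70, the most abundant of the U1 genes per kb, was at 259, 269 and 248 CPM in WT and 294, 281 and 277 CPM in KO. These values did not overlap either, but the log2 fold change of 0.13 (SE 0.06, edgeR adjusted p = 0.107) did not pass the test. Snrpa, which binds a stem-loop of U1 RNA, had 0.19 (SE 0.07, edgeR adjusted p = 0.0659).

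The 12 U2 and U2AF genes were divided: 6 rose, 1 fell and 5 were not called. Snrpa1 and Snrpb2 encode the U2 A′ and U2 B″ proteins, which bind U2 RNA together as a pair, and they moved in opposite directions. Snrpa1 (ENSMUSG00000030512, chromosome 7, 66059003 to 66074587, plus strand) was at 20.6, 17.7 and 20.2 CPM in WT and 25.9, 36.6 and 32.8 CPM in KO. KO 1 was the KO library nearest to WT. The log2 fold change was 0.70 (SE 0.13, edgeR adjusted p = 0.00971), 1.63-fold. Snrpb2 (ENSMUSG00000008333, chromosome 2, 143063039 to 143072853, plus strand) was at 78.3, 65.9 and 66.9 CPM in WT and 62.0, 51.5 and 51.1 CPM in KO. The genotypes did not overlap, although KO 1 lay only a little under WT 2. Its log2 fold change was -0.36 (SE 0.10, edgeR adjusted p = 0.0311), and leaving out WT 1, WT 2, KO 2 or KO 3 ended the call (edgeR adjusted p 0.0528 to 0.103), as did the deposited normalized values (limma adjusted p = 0.0658).

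Both U2AF subunits, which bind the polypyrimidine tract and the intron end, rose. U2af1 was at 33.6, 31.1 and 33.1 CPM in WT and 40.7, 45.2 and 39.4 CPM in KO (log2 fold change 0.36, SE 0.07, edgeR adjusted p = 0.0105). U2af2 was at 152, 160 and 154 CPM in WT and 179, 216 and 196 CPM in KO (log2 fold change 0.34, SE 0.08, edgeR adjusted p = 0.0147; 0.0629 without WT 1). All KO libraries were above all WT libraries for both genes.

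The SF3a and SF3b complexes hold U2 at the branch point, and their genes changed unequally. Sf3b5, the smallest of them, was at 40.4, 38.8 and 40.2 CPM in WT and 48.6, 52.0 and 50.8 CPM in KO (log2 fold change 0.34, SE 0.05, edgeR adjusted p = 0.00653). Sf3b3 and Sf3b4 rose with log2 fold changes of 0.30 and 0.28 (edgeR adjusted p = 0.0226 and 0.0451). Leaving out WT 1, WT 2, KO 2 or KO 3 ended both calls (edgeR adjusted p 0.0613 to 0.09 for Sf3b3 and 0.122 to 0.144 for Sf3b4), and the libraries of Sf3b4 overlapped. Sf3b1, the subunit that clasps the branch point, was at 333, 333 and 328 CPM in WT and 314, 287 and 303 CPM in KO. Every KO library was lower, but the log2 fold change of -0.14 (SE 0.06, edgeR adjusted p = 0.0976) did not pass. Sf3b2, the U2 gene with the highest level per kb, was at 274, 272 and 278 CPM in WT and 256, 272 and 280 CPM in KO, which overlap; its log2 fold change was -0.03 (SE 0.06, edgeR adjusted p = 0.747). The 3 SF3a genes had log2 fold changes of 0.07 to 0.16 and none was called, although Sf3a2 passed without KO 1 and Sf3a3 with upper-quartile scaling.

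Of the 3 U5 genes among the 38, only that of the GTPase Eftud2 passed the test. Eftud2 (ENSMUSG00000020929, chromosome 11, 102838473 to 102880985, minus strand) was at 67.0, 68.8 and 72.4 CPM in WT and 87.2, 101 and 90.4 CPM in KO. All KO libraries were higher, and the log2 fold change was 0.42 (SE 0.07, edgeR adjusted p = 0.00727). Prpf8, the scaffold of the catalytic core (ENSMUSG00000020850, chromosome 11, 75486816 to 75509449, plus strand), was at 351, 363 and 386 CPM in WT and 344, 373 and 364 CPM in KO. These ranges overlapped and the log2 fold change was -0.03 (SE 0.06, edgeR adjusted p = 0.777). The helicase gene Snrnp200 was at 207, 208 and 209 CPM in WT and 185, 190 and 195 CPM in KO. Its KO libraries were all lower, yet the log2 fold change of -0.13 (SE 0.05, edgeR adjusted p = 0.086) did not pass.

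Among the SR genes 4 of 6 rose. Srsf7 (ENSMUSG00000024097, chromosome 17, 80200080 to 80207307, minus strand) was at 65.5, 57.3 and 62.5 CPM in WT and 87.5, 94.7 and 86.1 CPM in KO. The genotypes were well apart, with a log2 fold change of 0.53 (SE 0.07, edgeR adjusted p = 0.00522). Srsf3, the smallest SR protein and like Srsf7 an adaptor of mRNA export, was at 130, 117 and 134 CPM in WT and 172, 182 and 169 CPM in KO (log2 fold change 0.46, SE 0.07, edgeR adjusted p = 0.00615).

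Srsf2, a nuclear exon-binding SR protein, was at 181, 175 and 174 CPM in WT and 208, 225 and 207 CPM in KO (log2 fold change 0.27, SE 0.06, edgeR adjusted p = 0.0135). Srsf1, which moves between nucleus and cytoplasm, was at 149, 134 and 149 CPM in WT and 169, 179 and 162 CPM in KO (log2 fold change 0.24, SE 0.07, edgeR adjusted p = 0.0313). The call of Srsf1 was lost without any one library but KO 1 (edgeR adjusted p 0.0547 to 0.0999). Srsf5, the most abundant gene of all 38, differed from the others in sign. It was at 512, 501 and 465 CPM in WT and 456, 403 and 421 CPM in KO. Every KO library was lower; the log2 fold change was -0.21 (SE 0.07, edgeR adjusted p = 0.0578), and it passed with DESeq2 (adjusted p = 0.0277) and in edgeR without KO 1 (adjusted p = 0.0235). Srsf6 had 0.15 (SE 0.06, edgeR adjusted p = 0.105).

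**Figure D2:**
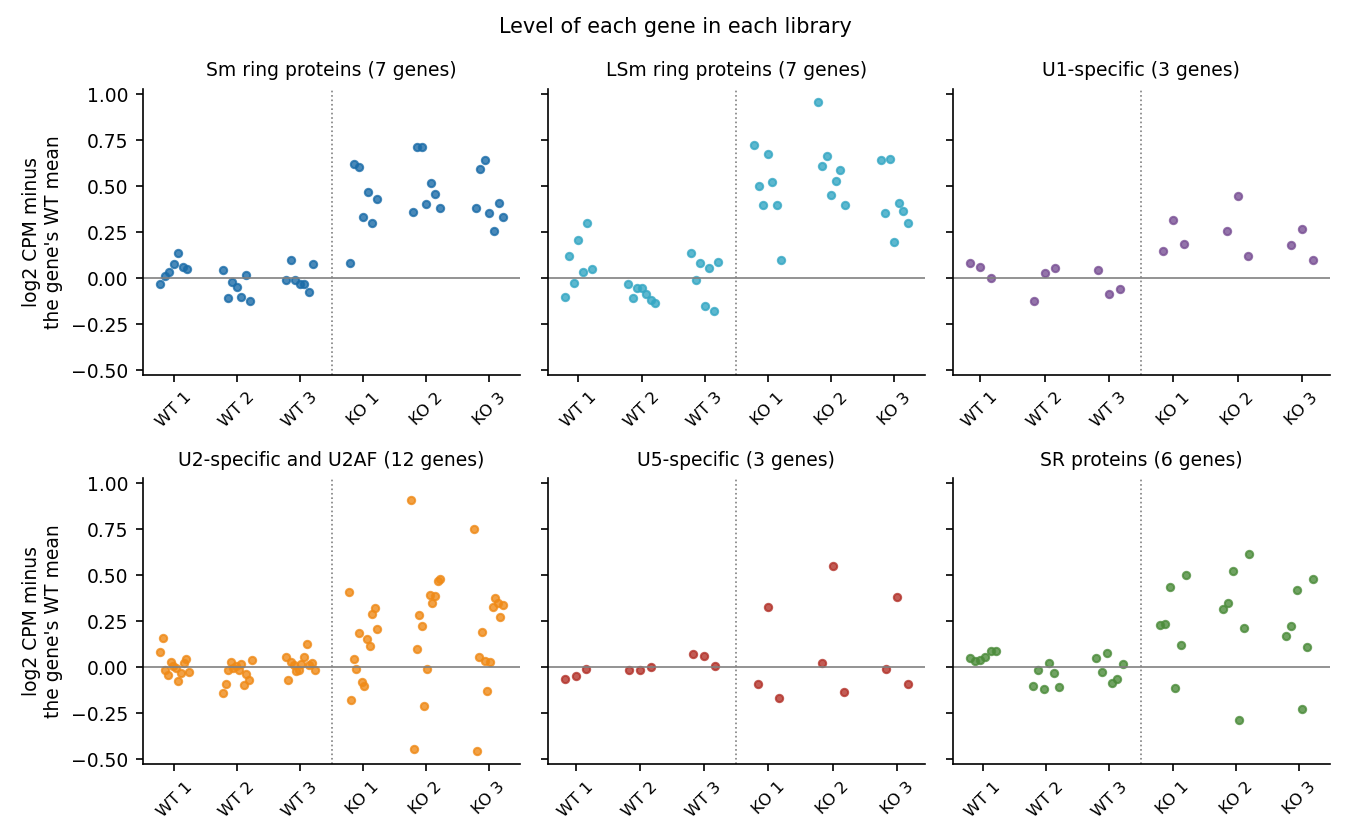
Level of each splicing gene in each library, as log2 CPM minus the mean of the gene's WT libraries, in a panel per role; each point is 1 gene. In the Sm and LSm panels nearly all KO points lie above the WT points, whereas the U2, U5 and SR panels hold KO points both above and below 0.

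The 14 small Sm and LSm genes were set against 7 large splicing factors: Sf3a1, Sf3b1, Sf3b2, Sf3b3, Prpf8, Eftud2 and Snrnp200. Of the small proteins' genes 11 rose and none fell, with a median log2 fold change of 0.44. Of the large factors' genes 2 rose and none fell, with a median of -0.03, which was 0.03 with upper-quartile scaling. Without WT 1, WT 2, KO 2 or KO 3 only 1 large factor, Eftud2, rose. At an unadjusted p under 0.05, Sf3b1 and Snrnp200 were lower in KO in edgeR and in DESeq2. Neither was with upper-quartile scaling, library totals, no filter on low counts, the deposited normalized values or their factors as offsets. With single libraries left out, Sf3b1 met this limit only without KO 1 and Snrnp200 only without KO 3. The mean log2 CPM of the small genes, less their WT mean, was 0.06, -0.07 and 0.00 in the WT libraries and 0.44, 0.55 and 0.42 in the KO libraries. For the large genes it was -0.03, -0.00 and 0.03 in WT and 0.01, 0.10 and 0.08 in KO. The difference of small less large was 0.09, -0.06 and -0.03 in WT and 0.43, 0.45 and 0.34 in KO, so the KO libraries were all higher by 0.41 on average (SD 0.08 in WT and 0.06 in KO, n = 3 each). It lay between 0.37 and 0.45 with any single library left out. No test was made of this difference, because the groups were chosen with earlier results of these data known.

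Markers of dividing cells also had higher mean levels in KO. Of 12 proliferation markers 7 rose, Pcna and the replication helicase genes Mcm2 to Mcm7, and none fell; Mki67, Top2a, Cdk1, Ccnb1 and Ccna2 were not called. The count of 7 was 1 without WT 1, 4 without KO 2 or KO 3, 12 without WT 3 and 2 without a filter on low counts. Their summed level was 571 to 959 CPM in WT and 1215 to 1873 CPM in KO. The mean log2 CPM of Pcna and Mcm2 to Mcm7, less its WT mean, was -0.07, -0.28 and 0.35 in WT and 0.72, 1.33 and 0.97 in KO. KO 2 was the highest library for these genes and for the small splicing genes. WT 2 was the lowest for both (-0.28 and -0.07). The libraries between them were ordered differently. The highest WT library was WT 3 for these genes (0.35) and WT 1 for the small splicing genes (0.06). The lowest KO library was KO 1 for these genes (0.72) and KO 3 for the small splicing genes (0.42). The part of dividing cells in the change of the splicing genes was not tested.

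**Figure D3:**
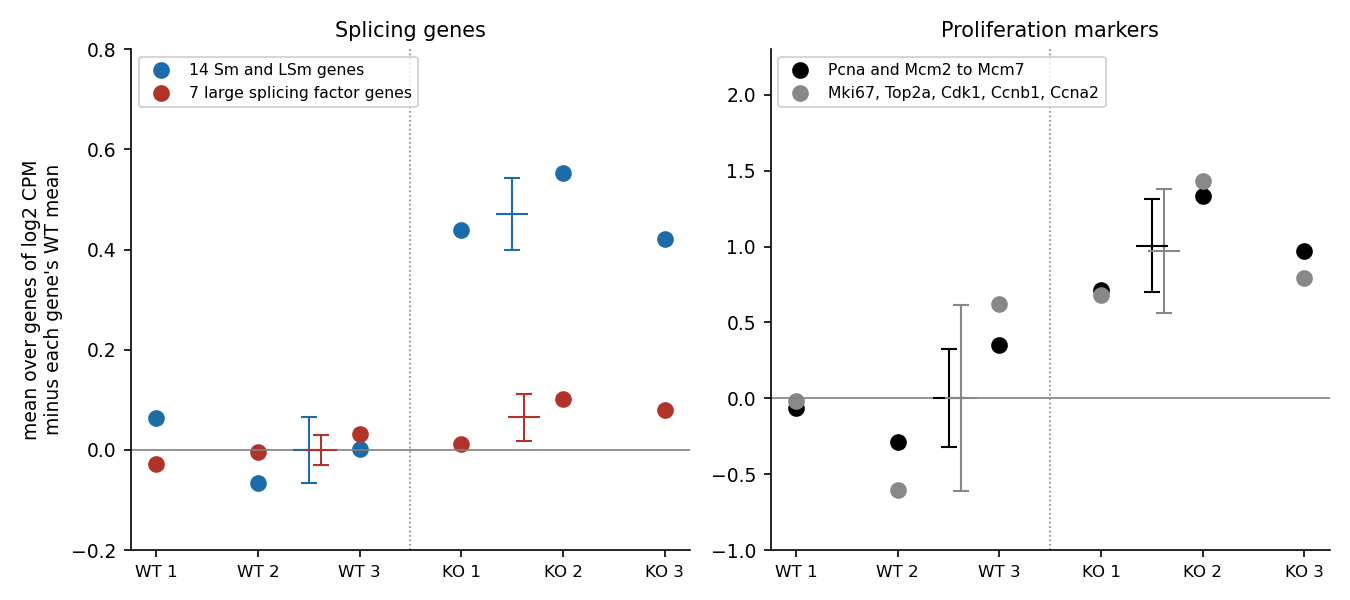
Left, mean log2 CPM of the 14 Sm and LSm genes and of the 7 large splicing factor genes in each library, less each gene's WT mean; right, the same for Pcna and Mcm2 to Mcm7 and for 5 other proliferation markers. Points are libraries and bars are group means with SD; the small splicing genes reach 0.42 to 0.55 in KO and the large ones 0.01 to 0.10.

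Short coding genes as a whole also leaned upward. Coding length was the longest coding sequence of a gene in GENCODE M21. Of 2068 tested genes with a coding length up to 693 nt, that of Snrpb, the longest of the small group, 27.3% rose and 10.8% fell, with a median log2 fold change of 0.10. Of 651 genes up to 414 nt, that of Lsm4, 32.4% rose and 8.45% fell (median 0.15). Of 2539 genes of at least 2373 nt, that of Sf3a1, the shortest of the large group, 13.0% rose and 26.1% fell (median -0.09). Across the 38 splicing genes, log2 coding length and log2 fold change had a Pearson correlation of -0.59 (Spearman -0.61), and across 11612 tested genes with a coding length one of -0.09 (Spearman -0.15). These correlations are across genes that share the same 6 libraries, so they are given without a p. The part of transcript length in the difference of small and large genes was not tested.

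**Figure D4:**
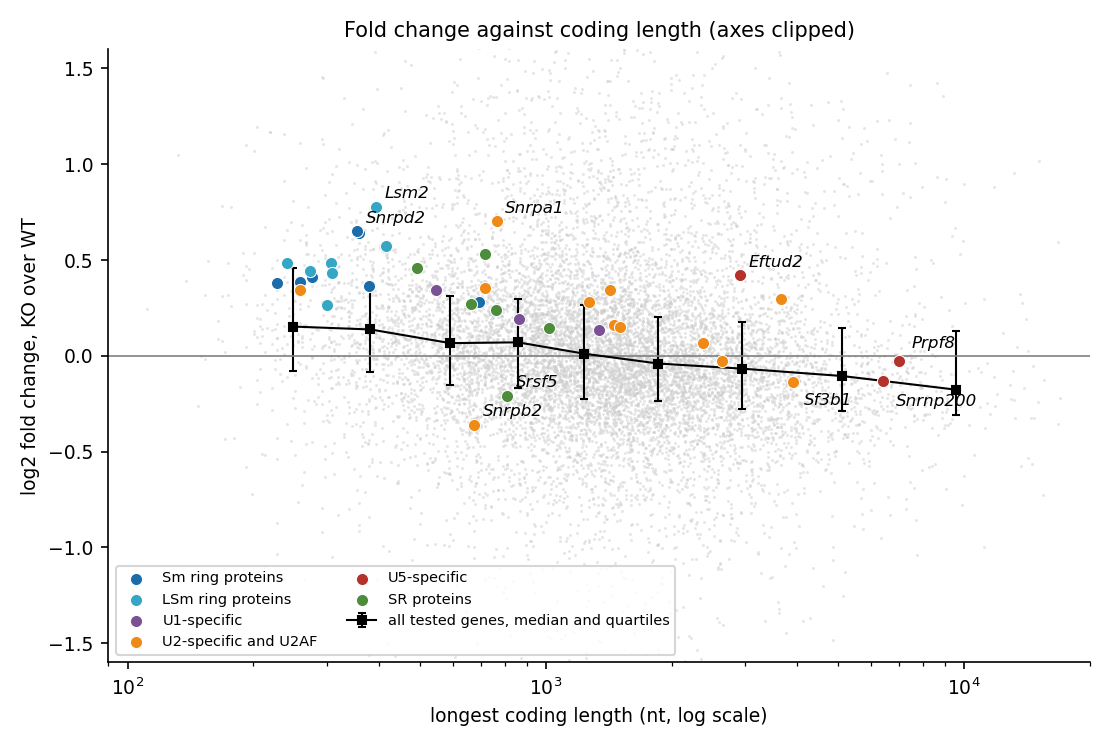
Log2 fold change, KO over WT, against the longest coding length of each gene in nucleotides on a log axis. Coloured points are splicing genes by role, grey points are single tested genes, and black squares are medians of tested genes in length bins with bars from the lower to the upper quartile; the medians run from 0.15 in the shortest bin to -0.18 in the longest.

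Several small splicing genes have near-identical copies in the genome, between which reads can be split. A copy here is an annotated transcript that matches at least 50% of a gene's coding sequence at 95% identity or more. Gm10232 held 52.6% as many counts as U2af1, Gm10146 41.8% as many as Lsm7, Gm8186 21.8% as many as Snrpg and Gm13092 15.4% as many as Snrpf. Values of these 4 genes are therefore uncertain as to their source. When copies' counts were added to their genes, U2af1 had a log2 fold change of 0.39 (edgeR adjusted p = 0.00646), Snrpg 0.40 (0.00901), Snrpf 0.38 (0.0111) and Lsm7 0.44 (0.0268), so that Lsm7 passed the threshold. The addition was made after seeing the data. Exons of Snrpd3, Snrpa, Sf3a2, Sf3b3, Sf3b4 and Srsf2 overlap expressed genes on the opposite strand. The library kit keeps strand, but the strand setting of the counting is not given in the sources used here. Reads of these pairs may thus be shared.

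Of 131 other splicing genes tested, in 10 lists by complex, 41 rose (31.3%) and 10 fell (7.63%), against 18.5% and 16.8% of all tested genes. Their median log2 fold change was 0.10. Leaving out single libraries gave 18 to 46 rises and 2 to 17 falls: 18 and 2 without WT 1, 20 and 3 without WT 2, 26 and 5 without WT 3, 25 and 4 without KO 2, 23 and 3 without KO 3, and 46 and 17 without KO 1. Rises were near or under the share of all tested genes, 18.5%, in several lists. They made up 20% of the further U2 genes and 20% of the other SR and SR-related genes. Of the SR kinase genes 16.7% rose, of the Prp19 list 15% and of the other Sm and LSm genes 14.3%. In the remaining lists 32 to 60% rose. The lists nearest in function to the Sm proteins are those of their assembly. Of 18 genes for snRNP assembly 10 rose and none fell (median 0.33), with 6 rises without WT 1, WT 2 or KO 3. Many of these genes, but not all, serve to load Sm proteins onto RNA or to methylate them. Gemin6, a subunit of the SMN complex that carries Sm proteins, rose from 3.97 ± 0.356 to 7.26 ± 0.873 CPM (mean ± SD, n = 3; log2 fold change 0.87, edgeR adjusted p = 0.0068). Prmt7, an arginine methyltransferase, rose from 22.4 ± 0.301 to 33.3 ± 1.95 CPM (0.57, edgeR adjusted p = 0.00459).

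Of 16 genes of the U4/U6 and tri-snRNP particles 7 rose and none fell (median 0.10), with Prpf31, which bridges U4/U6 and U5, at 64.0 ± 3.99 CPM in WT and 92.0 ± 8.55 in KO. Ppih, a prolyl isomerase of U4/U6, went from 3.91 ± 0.624 to 6.72 ± 0.198 CPM. Of 10 further U2 genes 2 rose, the SF3b subunit Phf5a (log2 fold change 0.29) and the helicase Dhx15 (0.22); none rose without WT 1 or WT 2, 1 without WT 3, KO 2 or KO 3, and 5 with upper-quartile scaling. The minor spliceosome list gave 3 rises and 1 fall among 9 genes (1 rise without WT 1, 2 falls without KO 1). Snrnp25 rose from 10.6 ± 1.15 to 15.9 ± 1.5 CPM, and Zrsr1, a relative of U2af1, fell from 22.7 ± 1.42 to 14.0 ± 1.76 CPM (log2 fold change -0.70, edgeR adjusted p = 0.00622). The Prp19 complex and catalytic helicases gave 3 rises, among them Prpf19 (0.27), and 2 falls, among them Cdc40 (-0.18), in 20 genes. No gene of that list was called without WT 1 or KO 3 and 1 rose without WT 2, WT 3 or KO 2, as with the deposited values and without a filter, while DESeq2 gave 2 rises, upper-quartile scaling 6, and neither a fall.

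Of 6 SR kinase genes 3 fell and 1 rose (median -0.18). None was called without WT 1, 1 fell without WT 2 or KO 3, 2 fell without KO 2, and the rise was lost without any one library but KO 1. Clk1, which phosphorylates SR proteins in the nucleus, fell from 142 ± 5.68 to 107 ± 12.6 CPM (log2 fold change -0.40, edgeR adjusted p = 0.014), and Clk4 from 49.9 ± 1.08 to 40.3 ± 3.19 CPM (-0.31, edgeR adjusted p = 0.0151). Of 15 other SR and SR-related genes 3 rose and none fell, with Tra2b at 82.1 ± 2.92 CPM in WT and 107 ± 7.19 in KO (log2 fold change 0.39) and Rnps1 at 0.27; 1 rose without WT 1, WT 2 or KO 2, 4 fell without KO 1, and the deposited values gave 1 rise and 1 fall. Of 25 hnRNP genes, whose proteins coat pre-mRNA, 8 rose and 3 fell. Without WT 1 or WT 2 there were 3 rises, without WT 3, KO 2 or KO 3 there were 5, none of these 5 fits gave a fall, and upper-quartile scaling gave 15 rises and 1 fall. Hnrnpa1 rose from 173 ± 14.9 to 259 ± 26.4 CPM and Hnrnpab from 297 ± 12.9 to 467 ± 53.3 CPM (log2 fold changes 0.58 and 0.66). In the exon junction complex 3 of 5 genes rose, among them Magoh (0.30) and Eif4a3 (0.23), but none without WT 2, WT 3, KO 2 or KO 3 and 1 without WT 1.

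Of 7 other tested genes of the Sm and LSm family 1 rose and 1 fell, and Snrpn had no count; without KO 1, 2 rose and 2 fell. Lsm12 rose (log2 fold change 0.30), and Lsm10, which replaces an Sm protein in the U7 snRNP of histone mRNA processing, fell from 22.1 ± 0.792 to 16.5 ± 1.05 CPM (-0.43, edgeR adjusted p = 0.00765). Of the 51 genes called in the 10 lists, 34 lost the call without at least 1 single library and 17 did not. Among the genes named here by a value, calls were lost for Phf5a and Clk4 (WT 1 or WT 2), Prpf19 and Clk1 (WT 1 or KO 3), Rnps1 (WT 1, WT 2 or KO 2), Magoh (WT 2, WT 3, KO 2 or KO 3), Lsm12 (WT 1), and Dhx15, Cdc40 and Eif4a3 (any library but KO 1), with edgeR adjusted p-values of 0.0501 to 0.122.

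**Figure D5:**
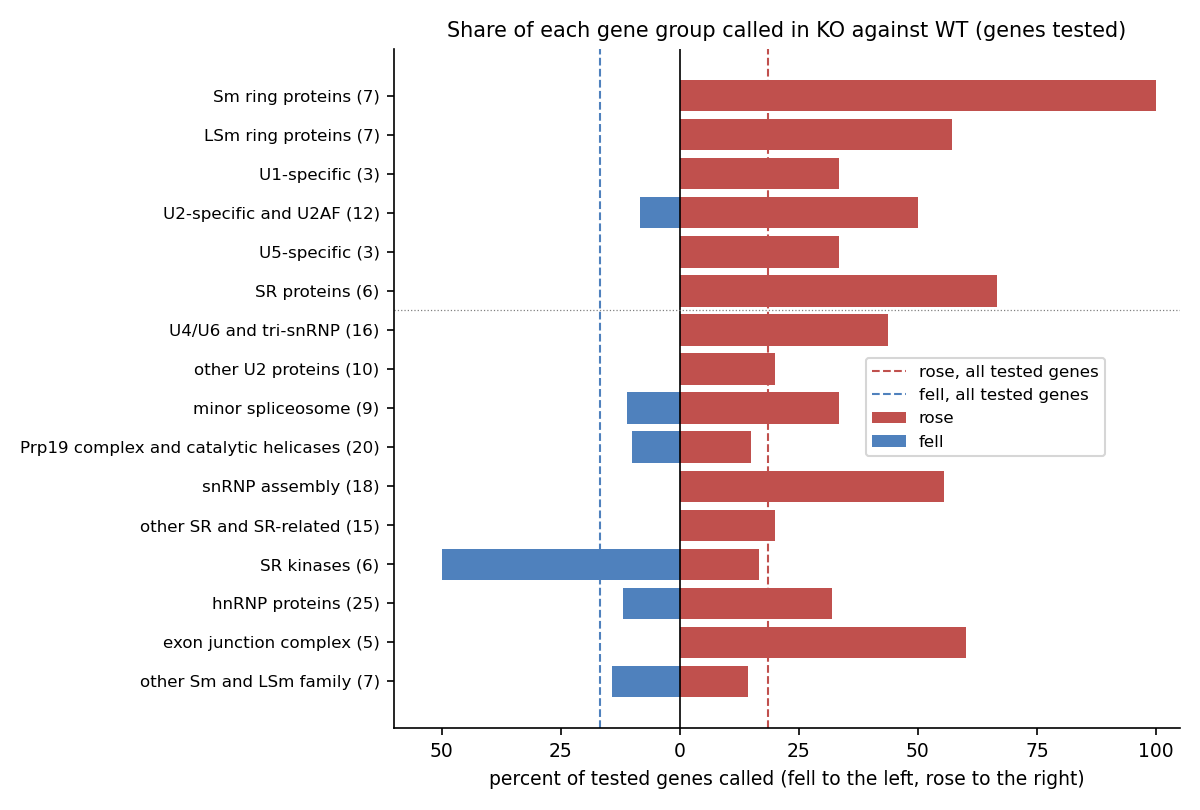
Percent of tested genes called in each role of the splicing genes (above the dotted line) and in each list of other splicing genes (below it); rises extend to the right and falls to the left of 0, and the number of genes tested is in brackets. Dashed lines are the shares of all tested genes, 18.5% rising and 16.8% falling; Sm proteins, at 100% risen, are farthest from them.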

How the data were processed

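The authors deposited whole-number counts per Ensembl gene and a normalized signal. DRAGEN, DESeq2 and the build mm10 are named, per the submitters' processing notes, without roles. The annotation and the strand setting were not given in the sources used here. The deposited normalized signal equals the counts over factors specific to gene and library: 57.1 to 72.2% of factors in a library lay more than 1% from its median over 12835 genes. Its construction is not stated.

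Genotypes came from the labels, and replicates were numbered in sample order. Counts were kept by filterByExpr (minimum count 10), TMM-scaled and compared between KO and WT by the robust quasi-likelihood test of edgeR 4.0.16 in R 4.3.3, with no covariate; p-values, two-sided, were adjusted by Benjamini-Hochberg, threshold 0.05. The SE is the log2 fold change divided by the root of the F statistic. Of 42256 genes, 21695 had a count and 12862 were tested; the test was tried on simulated data. Replicate pairs differed beyond sampling noise (chi-square per degree of freedom 12.7 to 53.2). Gene models are GENCODE M21; lengths per kb are medians of principal transcripts. Protein length was replaced by coding length, since no protein table was used here. Copies were found with blastn 2.17.0+. Alternatives were DESeq2 1.42.0, limma 3.58.1 with voom, limma on the deposited signal after adding 1 and taking log2, other scalings and filters, leaving out each library and, chosen after seeing the data, the deposited factors as offsets and copies' counts added. Per role, up to 4 called genes of largest change and the gene of highest level per kb were given by library, and up to 2 called genes per list were named; further genes were chosen after their values were seen. The genes and lists were chosen with earlier results of these data known.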

Additional observations from a re-analysis of the deposited data

How the results depend on the processing

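Rises of splicing genes numbered 21 to 29 in the 10 alternatives that kept all libraries, and all 23 were among them except Snrpg and Sf3b4 with the deposited normalized values and with their factors as offsets. Falls (1 in the main test) were 2 with DESeq2, 0 with the deposited values, 0 with offsets and 0 to 2 without single libraries; genes lower at an unadjusted p under 0.05 numbered 4 in the main test and in DESeq2, 1 with upper-quartile scaling, 2 with the deposited values in limma, 2 with offsets in edgeR and 1 to 3 without single libraries. Without single libraries, all genes gave 1037 to 2791 rises and 942 to 2665 falls, other splicing genes 18 to 46 rises and 2 to 17 falls (6 falls with upper-quartile scaling and 6 without a filter). Upper-quartile scaling, which moved the median of all genes to 0.06, moved the median log2 fold change of the splicing genes from 0.34 to 0.40, of large factors from -0.03 to 0.034, of short coding genes from 0.10 to 0.16 and of long ones from -0.09 to -0.028. Without single libraries these medians were 0.28 to 0.36, -0.04 to 0.01, 0.09 to 0.11 and -0.10 to -0.07, and that of small genes, 0.44, was 0.40 to 0.52. Sf3b2 and Prpf8, at -0.03 and not called, changed sign: Sf3b2 was 0.033 with upper-quartile scaling, 0.0082 without KO 1 and as low as -0.060 without KO 3, and Prpf8 was 0.034 with upper-quartile scaling, 0.011 without WT 3, 0.0055 without KO 1 and as low as -0.058 without WT 1. The shift of all genes with upper-quartile scaling was larger than the distance of both genes from 0; for single libraries the cause was not tested. Lsm6 changed from 0.48 to 0.66 with the deposited values. No paired analysis was possible because the labels give no replicate number that the genotypes share.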
